A study of Homo sapiens with 6 samples.

Results

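RGD-binding integrins are cell surface receptors made of an alpha and a beta subunit, most of which grip an arginine-glycine-aspartate motif in fibronectin, vitronectin, osteopontin or the latency peptide of TGF-beta. The genes described here were taken by symbol from the deposited table of MDA-MB-231 cells: ITGAV, ITGA5, ITGA4, ITGB3, ITGB5, ITGB6 and ITGB8. Of these 7 symbols 6 had a row among the 15706 genes of the table, and ITGB6 was not analysed here. MDA-MB-231 is a triple-negative line from human breast cancer, and the RNA-seq compared 3 control libraries (genotype wild type, guide labelled sgNT) with 3 knockout libraries (genotype MLL3 knockout, guide labelled sgMLL3). All cells were untreated and grown in DMEM with 10% FBS. Within each group the labels number the libraries #1 to #3 after the guide name and call them biological replicates 1 to 3. They say neither whether the cells are a clone or a pool nor what the guide sequence was. The titles do not explain whether the # marks separate guides, lines or cultures. Knockout refers to the label throughout.

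In these receptors the alpha-v subunit, encoded by ITGAV, can pair with beta-1, beta-3, beta-5, beta-6 or beta-8, whereas alpha-5 (ITGA5) pairs with beta-1 as the main fibronectin receptor. Alpha-4 (ITGA4) pairs with beta-1 or beta-7 and binds an LDV motif in fibronectin and VCAM1 rather than RGD, so it stands somewhat apart from the others. Beta-3 and beta-5 mark receptors for vitronectin, and alpha-v/beta-6 and alpha-v/beta-8 are best known for releasing active TGF-beta from its latent complex. Integrins of this family carry breast cancer cells along fibronectin-rich matrix, and talins and kindlins bind the tails of most beta subunits to switch them on.

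Levels are normalized read counts, that is reads divided by the authors' size factor of each library, with 41240265 to 49514464 recovered reads per library. KMT2C, the approved symbol of MLL3, was read at 1367, 1379 and 1255 in the controls and 1519, 1660 and 1339 in the knockouts (replicates 1, 2 and 3, the order used throughout), so its transcript level gave no check of the label. Fold changes are log2, knockout minus control, on log2(value + 1), from limma fitted to 14618 genes whose mean reached 10. A gene is called higher or lower where its Benjamini-Hochberg adjusted p, over all tested genes, is under 0.05. Fold changes in this table follow the GC content of the transcripts (Spearman's rho -0.673 across 14598 genes, which are not independent replicates), so each result is also given after a trend along GC content and length was removed from each library, here called trend-free. Nothing in the labels ties the libraries to separate cultures beyond the words biological replicate, and p-values measure the spread between these libraries.

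All 7 keratin, vimentin, CD44 and EGFR markers were listed, at a summed level of 147609 to 176825 counts per library, and of the 3 receptors taken as low in triple-negative cells ESR1 and PGR had no row, while ERBB2 was listed at 4581 to 6016 counts. Because beta-3 is also a protein of platelets and endothelium, markers of other cell types were looked at beside it. Of 7 endothelial markers 3 were listed, with summed counts of 222 to 292 in control and 166 to 207 in knockout libraries, and CDH5, TEK, CLDN5 and EMCN had no row. Of 6 platelet markers 2 were listed, at 63.8 to 76.3 and 51.8 to 66.5, and PF4, PPBP, GP9 and GP1BB had no row. Leukocyte markers (6 of 7 listed) summed to 896 to 1112 in control and 604 to 755 in knockout libraries, and fibroblast markers (4 of 8) to 1732 to 1908 and 1012 to 1105. The labels name the MDA-MB-231 line alone, and these counts do not show whether other cells were present. Where the marker reads come from, and their bearing on the integrin levels, was not tested.

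As deposited, 3 of the 6 integrin genes changed: ITGAV and ITGB8 were higher and ITGB3 was lower in the knockout libraries. Over all tested genes 33.2% were called, 18.9% higher and 14.4% lower, and with 6 members nothing particular to the integrins is read from their share. edgeR on the recovered reads called the same 3 members (33.6% of all genes), and so did the adjusted p of the authors' deposited table (38.5% of its genes with an adjusted p). The members had a median of -0.02, and all tested genes likewise -0.02, on the log2 scale. In bulk RNA fewer cells with a transcript and less of it per cell cannot be told apart. Trend-free, limma called 0 of the 6, where 10% of all genes were called, and 1 member (ITGB3) had an unadjusted p under 0.05.

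The start regions of the 2 genes that rose, and of ITGA5 as an abundant member that was not called, are shown here for their base composition, which for ITGAV and ITGB8 runs against that of the transcripts. Each is the RefSeq window of 250 bases before to 50 after a start site (GRCh38.p14), 5′ to 3′ on the strand of the gene, with matches to the GC box GGGCGG and to the AP-1 motif TGANTCA on either strand in capitals. The matches do not overlap, and positions count from 1 at the 5′ end of the window.
ITGAV, chr2:186589806-186590105, plus strand: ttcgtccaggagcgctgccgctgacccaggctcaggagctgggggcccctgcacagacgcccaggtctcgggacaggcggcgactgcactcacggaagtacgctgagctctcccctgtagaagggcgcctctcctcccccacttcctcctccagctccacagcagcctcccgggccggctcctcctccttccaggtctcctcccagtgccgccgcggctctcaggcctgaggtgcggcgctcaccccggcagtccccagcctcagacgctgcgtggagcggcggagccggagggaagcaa
ITGB8, chr7:20330650-20330949, plus strand: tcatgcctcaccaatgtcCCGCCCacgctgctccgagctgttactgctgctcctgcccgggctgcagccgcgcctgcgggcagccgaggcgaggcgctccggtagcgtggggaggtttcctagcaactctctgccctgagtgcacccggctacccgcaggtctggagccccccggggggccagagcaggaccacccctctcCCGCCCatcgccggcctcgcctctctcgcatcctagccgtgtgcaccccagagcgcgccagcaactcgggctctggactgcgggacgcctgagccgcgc
ITGA5, chr12:54419217-54419516, minus strand: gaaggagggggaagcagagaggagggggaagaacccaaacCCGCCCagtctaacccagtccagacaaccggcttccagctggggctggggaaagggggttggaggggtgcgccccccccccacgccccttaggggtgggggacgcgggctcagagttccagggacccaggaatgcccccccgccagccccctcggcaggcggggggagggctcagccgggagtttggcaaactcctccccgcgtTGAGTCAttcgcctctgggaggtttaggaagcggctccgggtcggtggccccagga

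These windows are rich in G and C. GC content was 70.7% for ITGAV, 71.7% for ITGB8 and 69.3% for ITGA5, against a median of 58.7% over 35116 promoter windows. The longest transcripts of ITGAV and ITGB8, in contrast, held 38.3% and 37.8% GC, in the lowest decile of the tested genes, while that of ITGA5 held 54.5%. The GC box was found in 2 places in the ITGB8 window and in 1 in that of ITGA5, and it occurs in 45% of all windows. An AP-1 match stood in the ITGA5 window alone of these 3, at base 245, and 7.71% of all windows hold such a match. No TATAAA was found in the 3 windows, and 11.5% of all windows hold it. A second RefSeq start of ITGAV (chr2:186599955-186600254) had a window with 41.3% GC. RefSeq windows matched 6 of the 7 symbols, in 9 windows, and ITGB3, the member called lower as deposited, had none.

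ITGAV, the alpha-v subunit common to most receptors of this family (ENSG00000138448.12, chromosome 2, 186590065 to 186680901, plus strand, GRCh38), was read at 2917, 3025 and 2772 normalized counts in control replicates 1, 2 and 3. The knockout replicates held 4355, 4356 and 3501. Every knockout library lay above every control library, as for 23.9% of all tested genes, and knockout replicate 3 was the closest to the controls. The means were 2905 ± 127 and 4071 ± 493 (SD, n = 3 each), a ratio of 1.40, or 0.48 on the log2 scale with SE 0.095 (limma adjusted p = 0.0013). The call held without each library in turn, with fold changes of 0.43 to 0.59. The decile of genes with the lowest transcript GC, to which ITGAV belongs, rose by 0.44 at its median, and 62.9% of its 1460 genes were called higher. Trend-free, ITGAV was at 0.043 (SE 0.061, adjusted p = 0.71, 95% interval -0.09 to 0.18). On that scale the libraries deviated from their common mean by -0.080, 0.010 and 0.006 in control and by 0.053, 0.089 and -0.078 in knockout replicates 1 to 3, and the groups overlapped.

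ITGA5, the alpha-5 subunit of the main fibronectin receptor (ENSG00000161638.11, chromosome 12, 54395261 to 54419460, minus strand), held 3955, 4616 and 5210 counts in the control and 3911, 4317 and 4632 in the knockout libraries. The groups overlapped, and replicate 1 was the lowest of each group. The fold change of -0.09 (SE 0.0996, 95% interval -0.30 to 0.11, limma adjusted p = 0.49) did not pass, and it was 0.04 with the trend removed (-0.12 to 0.20, adjusted p = 0.78). ITGA4, the alpha-4 subunit (ENSG00000115232.14, chromosome 2, 181457202 to 181536187), was scarcely read in this line, with 40, 45 and 37 reads in the control and 43, 51 and 44 in the knockout libraries. Its normalized counts were 43.1, 48.3 and 35.7 against 45.4, 45.2 and 40.4, and the interval of its fold change (0.05, 95% interval -0.55 to 0.65, limma adjusted p = 0.91) was wide. The alpha subunits thus gave 1 called gene, ITGAV.

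**Figure D1:**
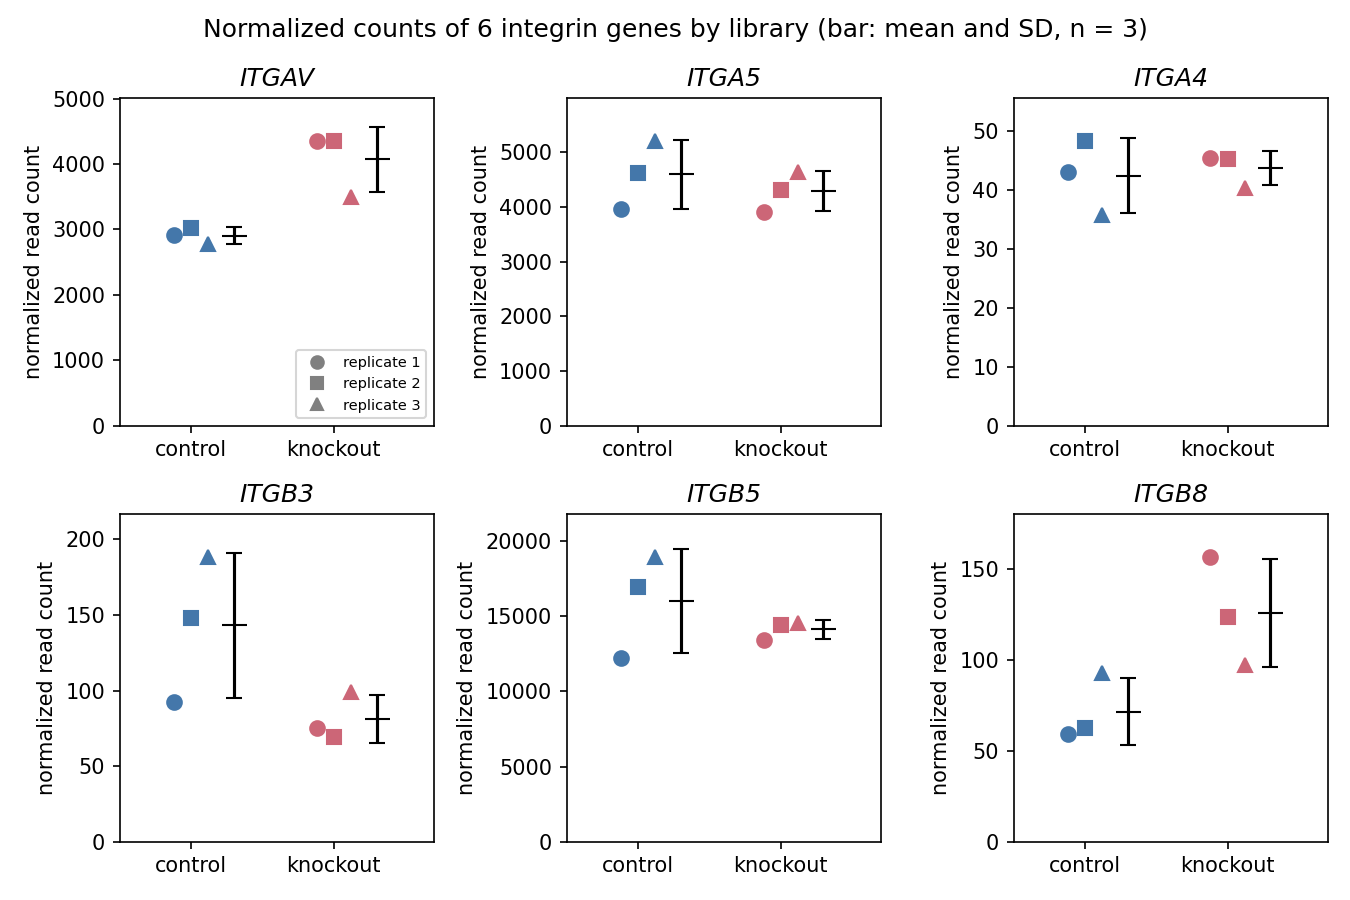
Normalized read counts (y axis, starting at 0, own scale in each panel) of the 6 integrin genes in the 3 control (blue) and 3 knockout (red) libraries, with point shape giving the replicate number and black bars the mean and SD. ITGAV and ITGB8 are higher in every knockout library, from 3501 and 97.3 counts upwards, whereas for ITGB3 control replicate 1 at 92.6 lies below knockout replicate 3 at 99.1.

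ITGB3, the beta-3 subunit of the vitronectin receptor (ENSG00000259207.8, chromosome 17, 47253846 to 47311816, plus strand), was low, with 69 to 188 normalized counts per library. Control replicates 1, 2 and 3 held 92.6, 148 and 188, and the knockout replicates 75, 69.1 and 99.1. Control replicate 1 lay within the range of the knockout libraries, and control replicates 2 and 3 above it. The means of 143 ± 48.1 and 81.1 ± 15.9 (SD, n = 3 each) gave -0.77 on the log2 scale with SE 0.25 (limma adjusted p = 0.025), from 71 to 195 reads per library. Without control replicate 1 it fell further, to -1.05 (adjusted p = 0.00039), while the call was lost without control replicate 2 (-0.72, adjusted p = 0.075), control replicate 3 (-0.54, 0.14), knockout replicate 1 (-0.72, 0.095) or knockout replicate 2 (-0.67, 0.097). Only 1.44% of the 1459 genes in the same GC decile had a lower fold change, and the median of that decile was -0.16. With the trend removed the fold change was -0.67 (SE 0.25, 95% interval -1.21 to -0.12, adjusted p = 0.11), and without each library in turn it ran from -0.93 to -0.46 (adjusted p up to 0.32). It passed in 1 of these 6 fits, that without control replicate 1 (-0.93, adjusted p = 0.0021). In GENCODE 29 a protein-coding gene on the same strand, AC068234.1, shares 2266 exonic bases with ITGB3, so reads there may have been left out or split and the level is uncertain.

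ITGB5, the beta-5 subunit of the other vitronectin receptor (ENSG00000082781.12, chromosome 3, 124761948 to 124901418, minus strand), was by far the most abundant of the members. It held 12189, 16921 and 18916 counts in the control and 13381, 14404 and 14553 in the knockout libraries, so that control replicate 1 was the lowest of all 6 and the other controls the highest. The fold change of -0.16 (SE 0.12, 95% interval -0.40 to 0.08, limma adjusted p = 0.30) did not pass. This rested on control replicate 1: without it ITGB5 was called lower, at -0.34 (adjusted p = 0.00066) as deposited and at -0.18 (adjusted p = 0.0022) with the trend removed. Over all 6 libraries its trend-free value was -0.02 (95% interval -0.26 to 0.21). The gene thus gave no call over the full set. Of the 6 fits without 1 library it was called in 1 as deposited and in 1 trend-free. Over the 6 such fits as deposited, 556 to 2868 of all genes were called lower, against 2099 with every library.

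ITGB8, the beta-8 subunit that presents latent TGF-beta (ENSG00000105855.10, chromosome 7, 20330702 to 20415754, plus strand), was read at 59.2, 62.3 and 92.7 counts in control replicates 1, 2 and 3. The knockout replicates held 156, 123 and 97.3. The knockout libraries all lay higher, as in 23.9% of all tested genes (46.3% without overlap in either direction), although control replicate 3 and knockout replicate 3 were close. The means of 71.4 ± 18.5 and 126 ± 29.6 (SD, n = 3 each), from 55 to 148 reads per library, gave a ratio of 1.76, or 0.81 on the log2 scale with SE 0.24 (limma adjusted p = 0.017). The call was lost without control replicate 2 (0.73, adjusted p = 0.055), knockout replicate 1 (0.64, 0.12) or knockout replicate 2 (0.81, 0.056). Of the 1460 genes in its GC decile 92.8% had a lower fold change than ITGB8. Its trend-free value was 0.35 (SE 0.24, 95% interval -0.18 to 0.89, adjusted p = 0.40), and it moved between 0.20 without control replicate 1 and 0.60 without control replicate 3, with no call in any of the 6 such fits. An antisense gene, AC004130.1, shares 98 of the 15156 exonic bases of ITGB8 and held 1.06 to 16.5 counts. With the strand setting not given in the sources used here, reads in the shared bases cannot be told apart.

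**Figure D2:**
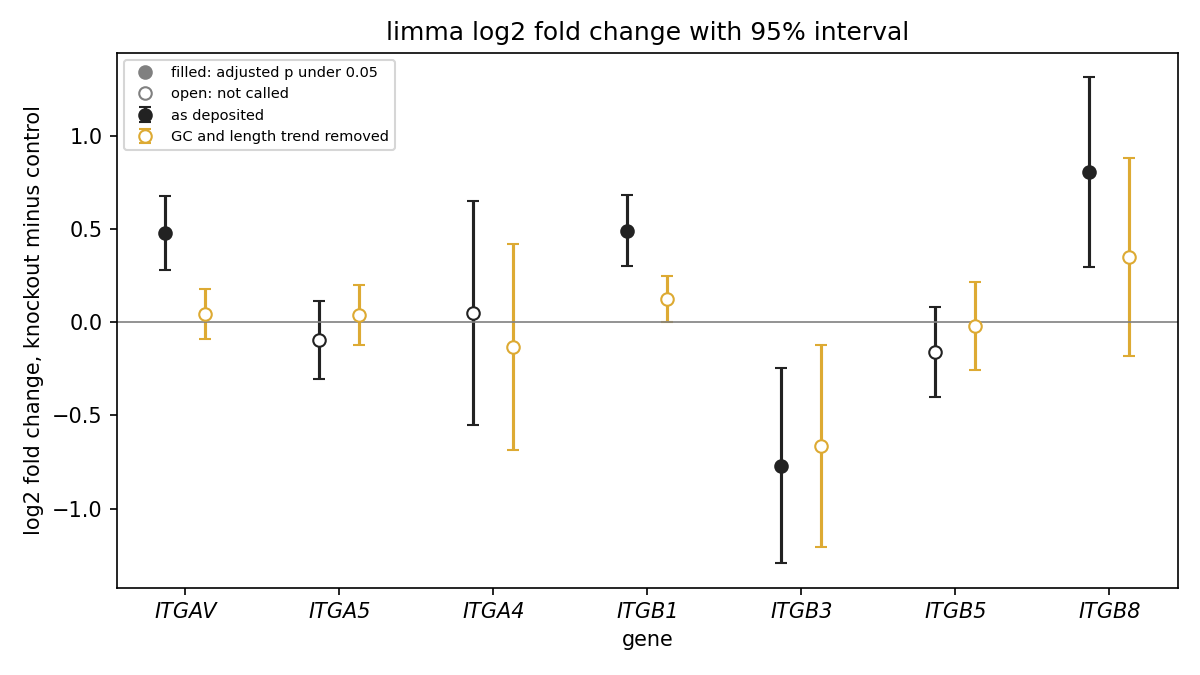
limma log2 fold change of knockout minus control (y axis) with its 95% interval for the 6 integrin members and ITGB1 (x axis), as deposited (black) and with the GC and length trend removed (yellow), filled where the adjusted p was under 0.05. ITGAV and ITGB1 move from 0.48 and 0.49 to 0.043 and 0.13, while ITGB3 moves from -0.77 to -0.67 with a wide interval.

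**Figure D3:**
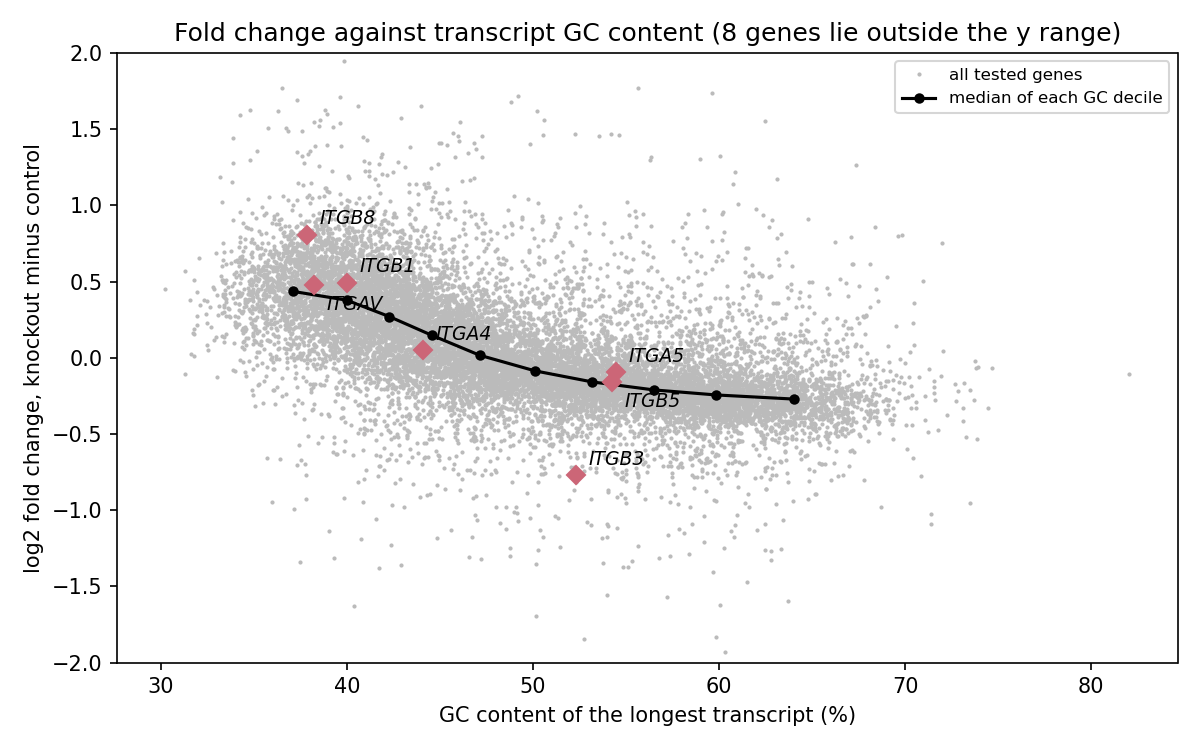
Log2 fold change as deposited (y axis, knockout minus control) against GC content of the longest transcript in percent (x axis) for all tested genes (grey), with the median of each GC decile (black) and the integrin genes (red). ITGAV, ITGB1, ITGA4, ITGA5 and ITGB5 lie close to the line, whereas ITGB8 lies above it and ITGB3 below it; 8 genes fall outside the range of the y axis.

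Levels of different subunits were compared as normalized counts per kilobase (kb) of the longest GENCODE 29 transcript. In control libraries ITGB1, the beta-1 subunit that pairs with alpha-v, alpha-5 and alpha-4, came first at 9494 ± 1058 per kb (SD, n = 3), followed by ITGB5 at 3662 ± 790, ITGA5 at 919 ± 126 and ITGAV at 413 ± 18.1. ITGB3 followed at 35.8 ± 12.03, ITGA4 at 10.1 ± 1.51 and ITGB8 at 8.16 ± 2.12. ITGA4 and ITGB8 overlapped between control libraries and had no clear order, while the ranges of all other neighbours in the order were apart. In the knockout libraries the order was the same for the first 5, from ITGB1 at 13339 ± 1165 per kb to ITGB3 at 20.3 ± 3.98. ITGB8 at 14.4 ± 3.38 then stood above ITGA4 at 10.4 ± 0.681, without overlap between that pair, and overlapped ITGB3. Part of this order rests on the length used. Per kb of the union of exons, the knockout libraries held ITGAV at 530, 530 and 426 and ITGA5 at 516, 570 and 611, which overlapped. By that length ITGB3 (15.7 to 22.6) and ITGB8 (6.42 to 10.3) did not overlap in the knockout libraries.

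ITGB1 (ENSG00000150093.19, chromosome 10, 32900319 to 33005792, minus strand), which is no member but supplies the beta subunit of alpha-5, held 39933, 35913 and 31928 counts in the control and 54939, 50358 and 46124 in the knockout libraries. The knockout libraries all lay higher, as in 23.9% of all tested genes, and replicate 3 was the lowest of each group. Its fold change was 0.49 (SE 0.092, limma adjusted p = 0.00082) as deposited and 0.13 (SE 0.056, adjusted p = 0.18) with the trend removed.

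The per-kb RNA levels of 4 beta subunits with which alpha-v can pair are given as shares of their sum. Beta-6 is left out, since ITGB6 had no row. Beta-1 also pairs with alpha-5 and alpha-4, so these shares do not give the make-up of the alpha-v receptors. Of the sum of beta-1, beta-3, beta-5 and beta-8, ITGB1 took 78.9%, 70.8% and 65.8% in the controls and 82.4%, 80.0% and 78.4% in the knockouts. ITGB5 took 20.9%, 28.9% and 33.7% in the control and 17.4%, 19.8% and 21.4% in the knockout libraries. For both, control replicate 1 lay among the knockout values. The differences of 8.42 and -8.29 percentage points had exact two-sided permutation p of 0.2 each, and 0.1 is the smallest that 3 against 3 allows. Without control replicate 1 they were 11.96 and -11.78 points, and without control replicate 3 they were 5.40 and -5.33. ITGB3 took 0.273% ± 0.0972 of the sum in control and 0.123% ± 0.0313 in knockout libraries (SD, n = 3 each, exact permutation p = 0.1, no overlap), and ITGB8 0.0621% ± 0.0178 and 0.0858% ± 0.0150 (exact permutation p = 0.2). With the trend removed the 4 differences were 2.09, -0.10, -2.002 and 0.012 points for ITGB1, ITGB3, ITGB5 and ITGB8 (exact permutation p = 0.5, 0.2, 0.5 and 0.5).

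**Figure D4:**
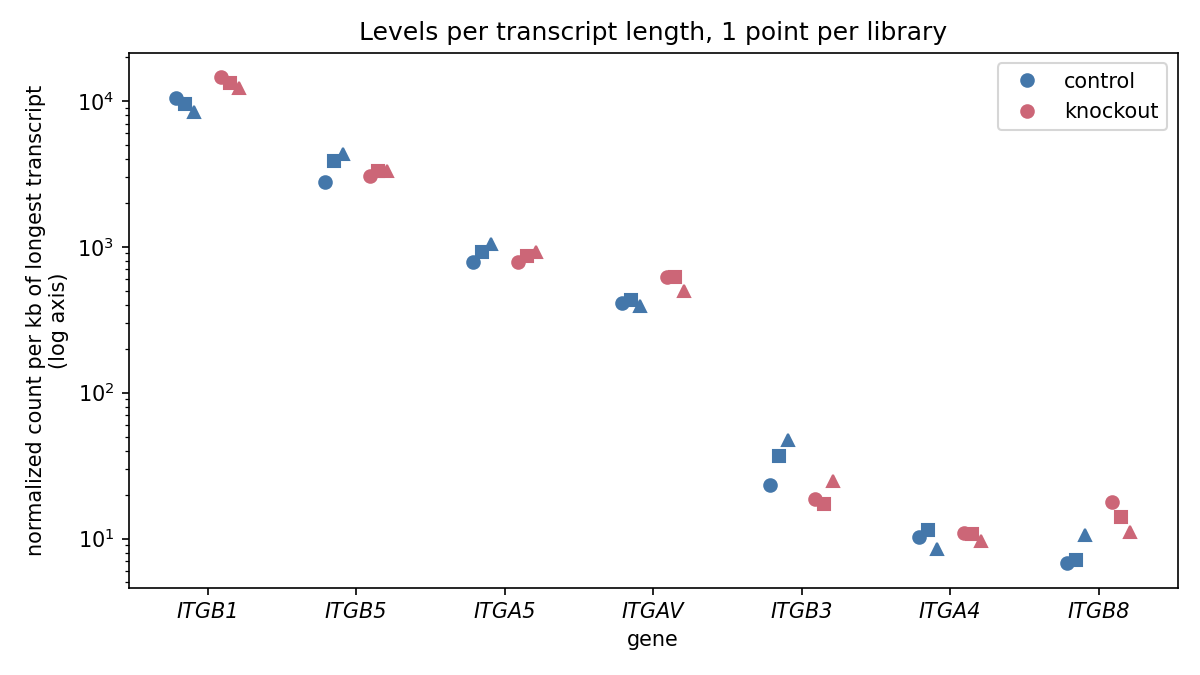
Normalized count per kilobase of the longest transcript (y axis, log scale) for ITGB1 and the 6 integrin members (x axis), 1 point per library, control in blue and knockout in red with point shape for the replicate. ITGB1 and ITGB5 lead, and ITGB3, ITGA4 and ITGB8 lie well below ITGAV.

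Ratios within a library are given as a description with no test. They use the same counts as the single-gene results and are no separate evidence. Per kb ITGB8 reached 0.292, 0.192 and 0.225 of ITGB3 in the controls and 0.952, 0.814 and 0.448 in the knockouts. ITGAV stood at 0.524, 0.466 and 0.378 of ITGA5 in the control and at 0.791, 0.717 and 0.537 in the knockout libraries. Both ratios were higher in every knockout library, and the members of each pair differ in GC content. ITGB5 over ITGAV was lower in every knockout library, at 6.72, 8.99 and 10.97 in the controls and 4.94, 5.32 and 6.68 in the knockouts. ITGB1 over ITGAV overlapped, at 25.4, 22.1 and 21.4 against 23.4, 21.5 and 24.5, and this pair is close in GC content. The ratios were not computed with the trend removed. Single-gene trend-free fold changes were 0.043 for ITGAV, 0.041 for ITGA5, -0.021 for ITGB5 and 0.13 for ITGB1. For ITGB8 and ITGB3 they were 0.35 and -0.67. The transcript length used sets the size of each ratio and cancels when the groups are compared.

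How the members ran together over the 6 libraries is described by Pearson's r of their log2 values, with no test, since the points share libraries, groups and the GC trend. ITGA5 and ITGB5 had r = 0.92, and 0.88 with the trend removed, each with replicate 1 lowest in its group. ITGAV had r = 0.94 with ITGB1 and 0.83 with ITGB8, which became 0.20 and 0.59 with the trend removed. ITGB3 ran against ITGB1, at r = -0.93 as deposited and -0.96 with the trend removed.

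For each called member, the 12454 tested genes whose mean reached 50 were searched for the closest profile, by the mean absolute difference of gene-centred log2 values over the 6 libraries. Closest to ITGAV were RPS6KA3, a ribosomal S6 kinase (0.016), and PRKAA1, a catalytic subunit of AMP-activated kinase (0.025). Closest to ITGB3 were METRNL (0.062) and RELB, an NF-kappaB subunit (0.12), and closest to ITGB8 were LINC02615 (0.069) and the zinc finger gene ZNF675 (0.12). RELB held 2059, 3419 and 3611 counts in the controls against 1800, 1942 and 2207 in the knockouts. It shares with ITGB3 the low control replicate 1, a likeness for which the search itself selects.

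The genes with which these integrins work were read from a list of 68 symbols in 4 roles, of which 59 were listed and tested. As deposited, 10 were higher (16.9%) and 11 lower (18.6%), against 18.9% and 14.4% of all tested genes, and the median of the list was -0.12 on the log2 scale. With the trend removed 1 was higher and 6 lower, where 4.07% and 5.93% of all genes were called, and 5 of these were called the same way in both analyses.

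Among 22 tested ligands and latent TGF-beta genes, 3 were higher (13.6%) and 2 lower (9.09%) as deposited, against 18.9% and 14.4% of all tested genes. EDIL3, a secreted RGD protein that binds alpha-v receptors, held 2106, 2840 and 2364 counts in the control and 4222, 4089 and 3432 in the knockout libraries. It rose without overlap, as did 23.9% of all tested genes, by 0.69 (SE 0.11, limma adjusted p = 0.00023). Its trend-free value was 0.27 (adjusted p = 0.11). MFGE8, its relative with an RGD motif, fell from 4993, 6245 and 7128 counts to 4278, 4480 and 4675. Its fold change of -0.44 (SE 0.10, adjusted p = 0.0049) was -0.34 with the trend removed and still passed (adjusted p = 0.047). These related ligands of alpha-v receptors thus went opposite ways as deposited.

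FN1, fibronectin, held 14660, 19818 and 19522 counts in the control and 20441, 23752 and 22962 in the knockout libraries. It was called higher by 0.32 (SE 0.10, limma adjusted p = 0.022), and its trend-free value was 0.00 (95% interval -0.27 to 0.27, adjusted p = 0.999). Without control replicate 1, the lowest library, FN1 was at 0.18 (adjusted p = 0.055), and its call was also lost without knockout replicate 2 (0.11) or 3 (0.062). THBS2, thrombospondin-2, rose by 0.92 from 21.6 ± 4.79 counts (SE 0.34, adjusted p = 0.046; 0.98 trend-free, adjusted p = 0.071), and ADAM15, an RGD-bearing metalloprotease, fell by 0.29 (adjusted p = 0.014; -0.07 trend-free, adjusted p = 0.47). The call of THBS2 was lost with edgeR (adjusted p = 0.051) and DESeq2 (0.056) on the recovered reads. Among the fits without 1 library it was lost in all but that without control replicate 1. It was kept in 4 of the 9 alternatives that used all libraries. The call of ADAM15 was lost without knockout replicate 1 or 2 (limma adjusted p = 0.093 and 0.058). VTN, vitronectin, was read at 18.0 to 45.2 counts and gave no call (0.24, adjusted p = 0.68). TGFB1, which encodes the latent TGF-beta that alpha-v/beta-8 binds, had a fold change of -0.24 (95% interval -0.43 to -0.04, limma adjusted p = 0.054), was at 0.00 trend-free. As deposited TGFB1 was called lower by edgeR (adjusted p = 0.048) and DESeq2 (0.046) on the recovered reads, in the authors' deposited table (0.048), and in limma without control replicate 1 (-0.32, 0.0030) or knockout replicate 3 (-0.29, 0.037). TNC, tenascin-C, was the gene called higher once the trend was removed (0.27, adjusted p = 0.026, against 0.16 and 0.16 as deposited) and was named after its values were seen.

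The list of talin, kindlin and adaptor proteins mixes some that couple the beta tails to actin with others, such as the endocytic adaptor DAB2. Of its 24 members 3 were higher (12.5%) and 9 lower (37.5%) as deposited (median -0.27), where 18.9% and 14.4% of all tested genes were. Trend-free, limma called 0 higher and 5 lower (20.8%), where 4.07% and 5.93% of all genes were (median -0.13, with 10 at an unadjusted p under 0.05). LIMS2, PINCH-2, fell from 2152 ± 218 to 1450 ± 128 counts (SD, n = 3 each; -0.57, SE 0.10, limma adjusted p = 0.00059). BCAR1, the docking protein p130Cas, and PXN, paxillin, fell by 0.43 and 0.42 (adjusted p = 0.0014 and 0.0016). Trend-free, LIMS2, BCAR1 and PXN passed too, at -0.35, -0.21 and -0.22 (adjusted p = 0.0058, 0.018 and 0.027). FERMT2, kindlin-2, and LIMS1, PINCH-1, which is paralogous to LIMS2, rose by 0.55 and 0.47 (adjusted p = 0.00065 and 0.0027) and had trend-free values of 0.10 and 0.14 (adjusted p = 0.39 and 0.27). The talins TLN1 and TLN2 were called lower (-0.32 and -0.44, limma adjusted p = 0.015 and 0.0038). Their trend-free values were -0.17 and -0.39 (adjusted p = 0.11 and 0.0089). PARVA, at 0.02 as deposited, was called lower trend-free (-0.20, adjusted p = 0.039). The kindlins FERMT1 and FERMT3 were not called as deposited (adjusted p = 0.98 and 0.14). TLN1, TLN2, PARVA, FERMT1 and FERMT3 were named after their values were seen. DAB2, an endocytic adaptor, rose by 0.29 (limma adjusted p = 0.047) and by 0.18 trend-free (adjusted p = 0.27). The call was lost with edgeR on the recovered reads (0.051) and without each of the 6 libraries in turn (adjusted p = 0.050 to 0.22). It was kept in 5 of the 10 alternatives that used all libraries.

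Among 10 membrane partners and traffic proteins limma called 3 higher (30.0%, against 18.9% of all tested genes) as deposited and the other 7 not. Trend-free it called 0, and 3 had an unadjusted p under 0.05. CD47, a partner of alpha-v/beta-3, rose by 0.28, CAV1, caveolin-1, by 0.27 and RAB21, a small GTPase of integrin endocytosis, by 0.27 (limma adjusted p = 0.022, 0.024 and 0.028). Trend-free values were -0.15 for CD47, -0.22 for RAB21 and 0.20 for CAV1 (adjusted p = 0.17, 0.092 and 0.075). As deposited, the call was lost without knockout replicate 1 or 2 for all 3, without control replicate 3 for CAV1 and RAB21, and without control replicate 2 for CAV1. The partner subunits gave 1 call of 3, ITGB1.

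**Figure D5:**
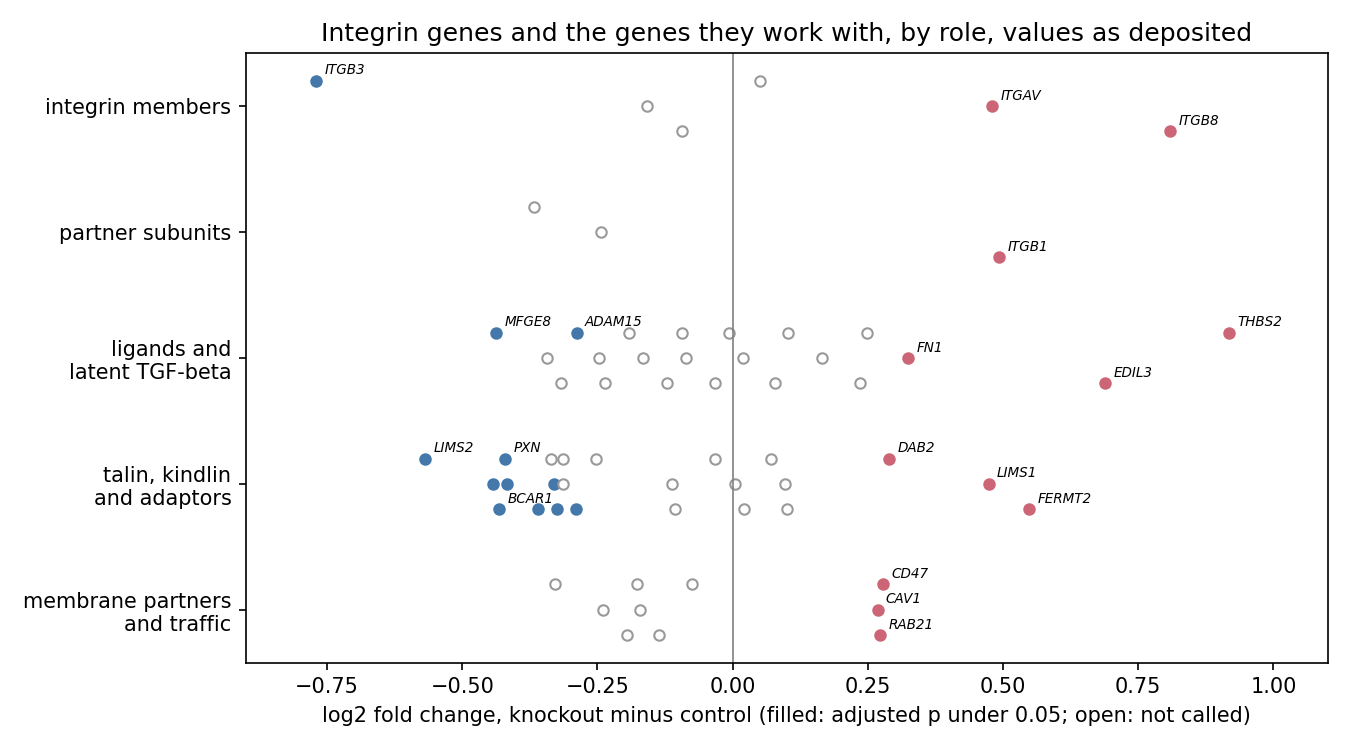
limma log2 fold change as deposited (x axis, knockout minus control) of the tested integrin members and of the genes of 4 roles (y axis), with filled points called higher (red) or lower (blue) and open points not called. The adaptors have 9 called lower and 3 higher, and the other 3 roles have 7 higher and 2 lower; with the GC and length trend removed the counts are 5 lower and 0 higher for the adaptors.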

How the data were processed

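The 6 libraries were aligned and counted with STAR 2.4.0 and featureCounts 1.5.0 on GRCh38.p13, per the submitters' processing notes, which also name FastQC and DESeq2 1.30.1. The annotation release, the strand setting and any filter were not given in the sources used here. Deposited by the authors was 1 table of normalized counts, a signal made by dividing reads by 1 size factor per library. Other columns hold, per the file headers, the authors' log2 fold change and standard error, a Wald statistic (a score), and a p-value with its adjusted form, of which the text uses the last alone. All values (100% within 0.01) were whole multiples of 1 step per library, which gave back whole reads. No listed gene has 0 reads in any library, and a gene without reads in some of them was not analysed here.

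With R 4.3.3, limma 3.58.1 (trended prior variance) was fitted to log2(value + 1), over genes with a mean of at least 10, two-sided, 3 libraries against 3. This scale understates the change of low genes. The GC and length trend was removed per library with natural splines of 5 terms each of GC percent and log2 length of the longest GENCODE 29 transcript. On the recovered reads DESeq2 1.42.0 and the quasi-likelihood test of edgeR 4.0.16 were alternatives. Simulated data with known changes were used to test the scripts. Members and lists were chosen with earlier results of these data known. Named genes were every member, up to 3 genes per role and direction with the smallest adjusted p, and ITGB1, FN1, VTN, TGFB1 and KMT2C. The 2 genes closest in profile to each called member were named as well. TNC, TLN1, TLN2, PARVA, FERMT1 and FERMT3 were named outside this rule, after their values were seen. Alternatives were other pseudocounts, filters and normalization, the trend, a replicate block, both count tools and leaving out each library. The fits with the trend removed and a library left out were added after seeing the data.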

Additional observations from a re-analysis of the deposited data

How the results depend on the processing

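ITGAV, ITGB8 and ITGB3 kept their calls under other pseudocounts (0.5 and 5), without the filter or with a mean of at least 50, after quantile normalization, with edgeR and DESeq2 on the recovered reads, and with the replicate block (42.9% of all genes called). With the GC and length trend removed 0 members were higher and 0 lower, also with the replicate block added. Leaving out 1 library gave 1 to 2 members higher and 0 to 2 lower as deposited, and 0 higher and 0 to 2 lower with the trend removed. For the list of working partners the counts were 1 higher and 6 lower with the trend removed, 11 higher and 19 lower with the replicate block, and 2 and 7 with both. Leaving out 1 library gave 4 to 8 higher and 6 to 23 lower as deposited, the 23 without control replicate 1, where the counts over all genes moved as well (1587 to 3300 higher and 556 to 2868 lower, against 2760 and 2099), and 0 to 6 higher and 1 to 17 lower with the trend removed. With the block TGFB1 was called lower (adjusted p = 0.0071 in limma). Deviations of same-numbered libraries correlated at 0.066, 0.0063 and 0.13 as deposited, and those of different numbers at -0.099 to 0.027. Once the trend was removed the values were 0.011, -0.0033 and 0.022 against -0.022 to 0.011. The main fit did not pair libraries by number.

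Directions turned with the trend removed, alone and with the block, for ITGA5 (0.041), ITGA4 (-0.13), CD47 (-0.15), RAB21 (-0.22), TGFB1 (0.00065) and KMT2C (-0.039). Over the libraries left out in turn, ITGA5 ranged from -0.20 to 0.0012 as deposited and from -0.041 to 0.11 trend-free (0.055, 0.075, 0.035 and 0.013 between), ITGA4 from -0.064 to 0.15 and from -0.21 to -0.050 (-0.14, -0.15, -0.16 and -0.099 between), ITGB5 from -0.34 to -0.026 and from -0.18 to 0.086 (0.037 without control replicate 2), and VTN from -0.10 to 0.54 as deposited. The cause was not tested. ITGA4, with a mean below 50, has no value under that filter. Low depth limits ITGA4, ITGB3 and ITGB8, each under 200 reads per library.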
